A study of Homo sapiens with 10 samples.

Results

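The control groups of this siRNA and inhibitor series were compared with each other: 2 libraries of cells given a nonspecific siRNA against 2 libraries of cells given DMSO, 4 of the 10 libraries in all, over the 23228 genes listed in the count table. The libraries fall into their groups by their labels. All libraries came from cells labelled RD, an established line from a human rhabdomyosarcoma, kept in RPMI medium with fetal bovine serum. The nonspecific siRNA, called scrambled in another label, was transfected at 10 nM with Lipofectamine RNAiMAX and the cells were collected at 48 h. The DMSO cells received the drug vehicle and were collected at 24 h, and the labels mention no transfection for them. Transfection, siRNA, vehicle and time of collection thus differ together between both groups, and their effects cannot be told apart. The 6 libraries drawn on for comparison were 4 with NRAS siRNAs (siRNA 1 and siRNA 2, 2 libraries each, 10 nM, 48 h) and 2 with the ERK inhibitor SCH772984 (300 nM, 24 h).

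A small interfering RNA is a short duplex of which 1 strand, the guide, is loaded into an Argonaute protein and directs it to matching transcripts. MicroRNAs use the same Argonaute proteins, and pairing of bases 2 to 8 of the guide, the seed, with the 3′ untranslated region (3′ UTR) of a transcript is often enough to lower its level. An siRNA with no intended target can therefore still lower transcripts through its seed, and siRNAs in excess can occupy Argonaute proteins that microRNAs would use. Double-stranded RNA and transfection lipids are also known to set off interferon and NF-kB responses in many cells. The nonspecific siRNA is the reference for both NRAS siRNAs in this design, and DMSO is the reference for the inhibitor, so genes that differ between both references bear on any reading across them.

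Counts assigned to genes ranged from 23224063 to 27232886 in the 4 control libraries and from 23224063 to 30768970 in all 10. In the controls, 3 counts correspond to 0.110 to 0.129 CPM (counts scaled to a common library size), the limit that a count of 0 allows. CPM values of single libraries below are scaled by edgeR's TMM factors. Whether replicates were grown as separate cultures is not stated in the labels, and p-values therefore reflect only how these libraries spread, possibly for technical reasons. The first principal component of the 4 control libraries held 39.0% of their variance and separated both groups, and the second, with 34.4%, separated replicate 1 from replicate 2. The cell type label was checked against muscle markers. MYF5 had 0 counts in all 4 libraries, which allows up to 3 counts each, and MYOD1, MYOG, PAX7 and CHRNG stood at 0.220 CPM or less in each of them. These genes, among them the defining transcription factors of the muscle lineage, were thus absent or near that limit. The label is kept as a name only, RD, in what follows. DES, PAX3, FGFR4 and NCAM1, also named as muscle or rhabdomyosarcoma markers, were present, at 23.6, 11.8, 20.3 and 96.2 CPM on average over the 4 libraries.

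Between nonspecific siRNA and DMSO, 40 genes were higher and 16 lower, 56 of 14761 genes tested, or 0.379% (quasi-likelihood F-test of edgeR, Benjamini-Hochberg adjusted p, threshold 0.05). The higher genes made up 0.271% of those tested and the lower genes 0.108%. The rises were led by BTG2, an antiproliferative factor, and the falls by MSRB3, a methionine sulfoxide reductase. Only 10 of the 56, or 0.0677% of the genes tested, differed at least 2-fold, and log2 fold changes ran from 0.49 to 1.21 among the higher genes and from -1.19 to -0.51 among the lower ones. In all 56 the 2 nonspecific libraries lay on 1 side of both DMSO libraries, as they did in 5550 of the 14761 genes tested. Leaving out 1 control library can therefore hardly reverse the sign of a called gene. At an unadjusted p under 0.05 there were 1713 genes, 11.6% of those tested, 994 higher and 719 lower. The count of 56 rests on all 4 libraries: leaving out the nonspecific siRNA's replicate 1 gave 10 calls and its replicate 2 gave 8, leaving out DMSO replicate 1 gave 12 and DMSO replicate 2 gave 6 (in that order 9, 8, 9 and 6 of these were among the 56), while DESeq2 called 354 genes. Of the 25 called genes chosen by rule for description, all kept their sign under 12 other settings, and 6 were called under every one: C9orf5, CYBRD1, SLC2A3, MSRB3, PTPMT1 and TOMM20.

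**Figure D1:**
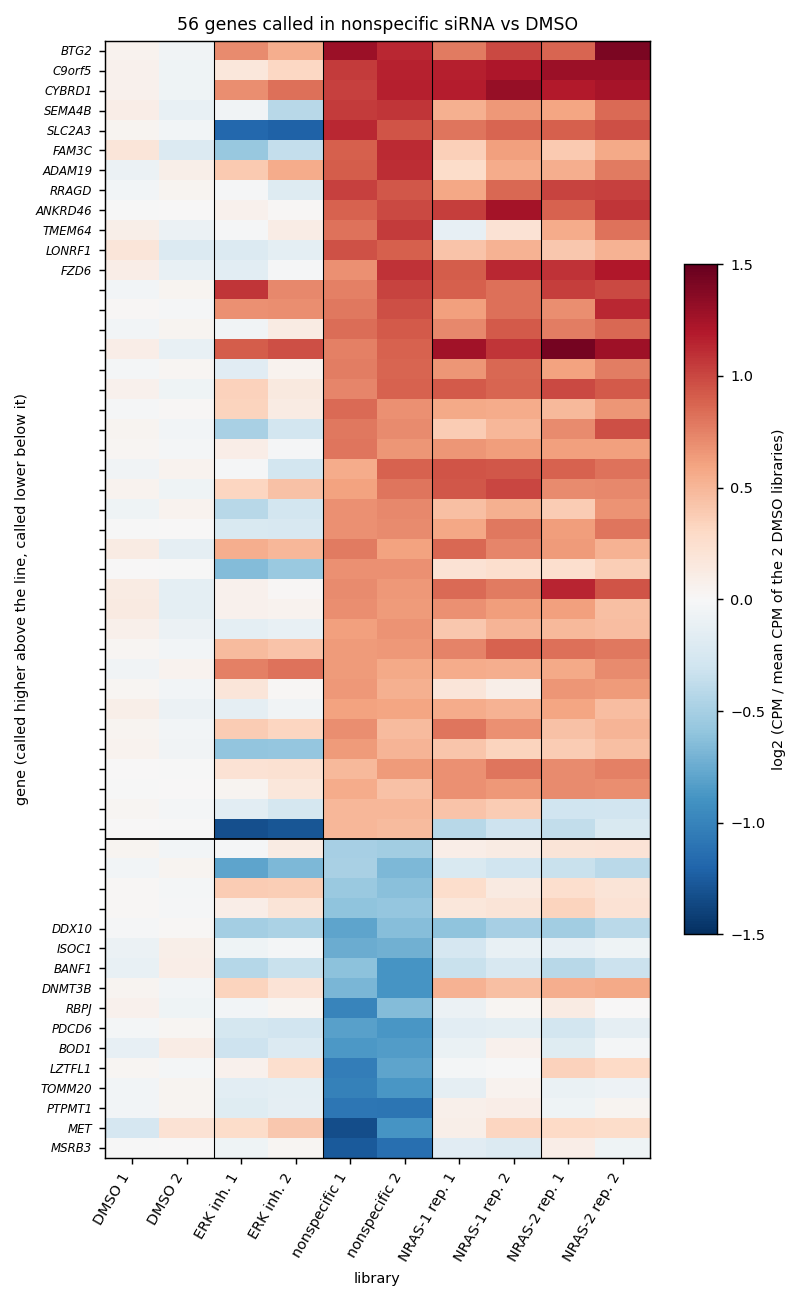
Levels of the 56 called genes (rows, ordered by fold change) in all 10 libraries (columns), as log2 of CPM over the mean CPM of the 2 DMSO libraries; red is higher and blue lower. The upper 40 rows are mostly red in all 6 siRNA libraries, while the lower 16 rows are blue in both nonspecific siRNA libraries and pale in most of the NRAS siRNA libraries. Row names are given for the 12 greatest rises and the 12 greatest falls.

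The 16 lower genes come from many functions, among them redox repair, growth factor reception, mitochondria and chromatin. MSRB3 was at 66.5 and 67.6 CPM in the DMSO libraries and at 28.1 and 30.7 CPM with the nonspecific siRNA, a log2 fold change of -1.19 (SE 0.10, adjusted p = 0.00153) in edgeR. Both nonspecific libraries lay far below both DMSO libraries. With the NRAS siRNAs, also transfected and also collected at 48 h, MSRB3 stood at 59.4, 58.00, 71.8 and 64.1 CPM, close to DMSO, and with the ERK inhibitor at 64.2 and 68.3 CPM. Nonspecific siRNA minus the mean of the NRAS siRNAs gave -1.10 (SE 0.09, adjusted p = 0.00057) in edgeR, a comparison that shares the nonspecific libraries with the first.

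MET, the receptor tyrosine kinase for hepatocyte growth factor, stood at 18.04 and 24.9 CPM in DMSO and 8.57 and 11.6 CPM with the nonspecific siRNA, a log2 fold change of -1.09 (SE 0.19, adjusted p = 0.0485) in edgeR. Its groups did not overlap, as in all called genes. The 4 NRAS siRNA libraries, at 22.9 to 26.8 CPM, lay at the DMSO levels or just above, and none as low as the nonspecific siRNA. Against the NRAS siRNAs the difference was -1.34 (SE 0.17, adjusted p = 0.00309) in edgeR. MET was also the 1 called gene of the receptor tyrosine kinase list, of which 33 members were tested (0.108% of all tested genes were called lower). The list itself did not lean lower. At an unadjusted p under 0.05 it had 4 members higher and 3 lower (all tested genes: 6.73% and 4.87%), with a median of 0.02. 

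A pair of mitochondrial genes fell as well. PTPMT1, a phosphatase needed to make cardiolipin, went from 31.2 and 33.2 CPM in DMSO to 15.2 and 15.1 CPM, a log2 fold change of -1.09 (SE 0.10, adjusted p = 0.00259) in edgeR. TOMM20, the import receptor of the outer mitochondrial membrane, went from 255 and 269 CPM to 130.03 and 143 CPM, or -0.94 (SE 0.09, adjusted p = 0.00264). Replicates were close to each other in both genes, and the groups did not overlap, as in all called genes. With the NRAS siRNAs PTPMT1 ranged over 30.8 to 34.4 CPM and TOMM20 over 238 to 271 CPM, at or near the DMSO levels. Of 42 tested subunits of the oxidative phosphorylation complexes, 0 were called by edgeR or DESeq2 and 0 reached an unadjusted p under 0.05 (all genes tested: 11.6%), with a median log2 fold change of -0.01.

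RBPJ, the DNA-binding factor of NOTCH signalling, fell from 60.2 and 54.8 CPM to 28.97 and 36.6 CPM, a log2 fold change of -0.81 (SE 0.12, adjusted p = 0.027) in edgeR. DNMT3B, a DNA methyltransferase that sets new methyl marks, fell from 34.4 and 32.5 CPM to 20.8 and 18.1 CPM, or -0.78 (SE 0.11, adjusted p = 0.0244). DNMT3B differed from the genes above in 1 respect: with the NRAS siRNAs it was at 45.7 to 49.5 CPM, above both control groups. The falls of LZTFL1, a regulator of ciliary trafficking (-0.91), BOD1, a factor for chromosome alignment (-0.85), PDCD6, a calcium-binding adaptor (-0.84), BANF1, which tethers DNA at the nuclear envelope (-0.75), ISOC1 (-0.74) and DDX10, an RNA helicase (-0.72), lay between those of TOMM20 and DDX10 on the log2 scale. Their adjusted p-values in edgeR ran from 0.00489 for PDCD6 to 0.031 for BANF1. SMAP1, C14orf132, PRR11 and CALU, the remaining 4, are outside the rule for named genes and were named after their values were seen to complete the count; they fell by 0.59, 0.59, 0.58 and 0.51. DDX10 and PRR11 did not stand at the DMSO level with the NRAS siRNAs: DDX10 was at 48.9 to 56.5 CPM there and at 73.9 and 75.4 CPM in DMSO, and PRR11 at 277 to 315 CPM against 357 and 378 CPM.

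Most lower genes shared a short sequence in their 3′ UTRs. Every run of 7 bases found in the 3′ UTRs of at least 100 of 13371 tested genes was ranked, on the transcript strand only. The rank used the shift in log2 fold change of genes holding the run, after allowance for 3′ UTR length and GC content. This shift was weighted by the number of genes holding the run, so a smaller shift in more genes can rank higher. Among 15883 such runs, the 5 ranked lowest were TGACGTA (in 200 genes), GACGTAA (155), GACGTAT (172), GACGTAC (107) and AGACGTA (212). These all contain the 6 bases GACGTA and overlap each other through them. GACGTA occurred in the 3′ UTR of 12 of the 16 lower genes (75%) and of 0 of the 40 higher genes, against 4.28% of all tested genes with a 3′ UTR and 4.46% of genes of the same 3′ UTR length as the lower ones. BOD1, SMAP1, PRR11 and CALU were the 4 without it. The genes ranked include the called ones, so this is a description of the same fold changes and no test of them. The sites of the named lower genes are shown because they are what these genes have in common, with the 6 bases in capitals and 9 bases on each side, 5′ to 3′ on the transcript strand, all within annotated 3′ UTR exons (GENCODE v29, GRCh38).
MSRB3, chr12:65466648-65466671 (+ strand): aatgcaaatGACGTAgcaatttga
MET, chr7:116797590-116797613 (+ strand): ggttttgtcGACGTAaacatttaa
PTPMT1, chr11:47571711-47571734 (+ strand): cccagacttGACGTAacagaaatg
TOMM20, chr1:235111557-235111580 (- strand): aatctctgaGACGTAaatatgtga
LZTFL1, chr3:45825484-45825507 (- strand): tttttaaaaGACGTAtattcaaca
LZTFL1, chr3:45824439-45824462 (- strand): atgttctttGACGTAaatcaacgt
PDCD6, chr5:314934-314957 (+ strand): ggaatatgtGACGTAagcaataaa
RBPJ, chr4:26431965-26431988 (+ strand): ttttcccatGACGTAaatacatag
DNMT3B, chr20:32809227-32809250 (+ strand): tggagccacGACGTAacaaatatg
BANF1, chr11:66003876-66003899 (+ strand): ctcacctccGACGTActccggggt
ISOC1, chr5:129113348-129113371 (+ strand): aaagaaaatGACGTAccaacaatg
DDX10, chr11:108940813-108940836 (+ strand): catgatttcGACGTAtttaatatt

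LZTFL1 held 2 copies and the other carriers 1, giving 13 sites with the single one of C14orf132. The base after the 6-mer was A in 8 of these 13 sites (61.5%) and in 157 of 605 sites over all tested genes (26.0%). The base before it was T in 6 and C in 4 of the 13 (46.2% and 30.8%), where all sites had T in 33.9% and C in 5.29%. The sources used here do not give the sequence of the nonspecific siRNA, and no site could be compared with its seed.

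The shift reached past the called genes. The 6-mer was found from these same fold changes, of called and uncalled genes alike. The values for the nonspecific siRNA below therefore describe the shift and are no test of it. Of 572 tested genes with GACGTA in the 3′ UTR, 36.0% had a log2 fold change above 0, against 50.2% of genes without it. The median of these carriers was -0.08, against 0.00 without the 6-mer. In the 30 carriers with at least 2 copies the median was -0.04, so more copies did not go with a greater fall. The share called lower was 2.10% with the 6-mer and 0.0313% without it. The adjusted shift was -0.12 on the log2 scale, and it was -0.10 when the 56 called genes were left out. Taken singly, each nonspecific library against the DMSO mean gave -0.12, while DMSO replicate 1 minus replicate 2 gave 0.02. In the NRAS siRNAs the same genes showed 0.01 for siRNA 1 and -0.01 for siRNA 2 against DMSO, which share the DMSO libraries with the first comparison. In libraries shared with neither control group, the NRAS siRNAs minus the ERK inhibitor, the shift was -0.02. The longer TGACGTA was less particular: its 200 carriers were shifted by -0.16 with the nonspecific siRNA and by -0.06 and -0.08 with NRAS siRNA 1 and siRNA 2 against the same DMSO libraries. The cause of these shifts was not tested.

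**Figure D2:**
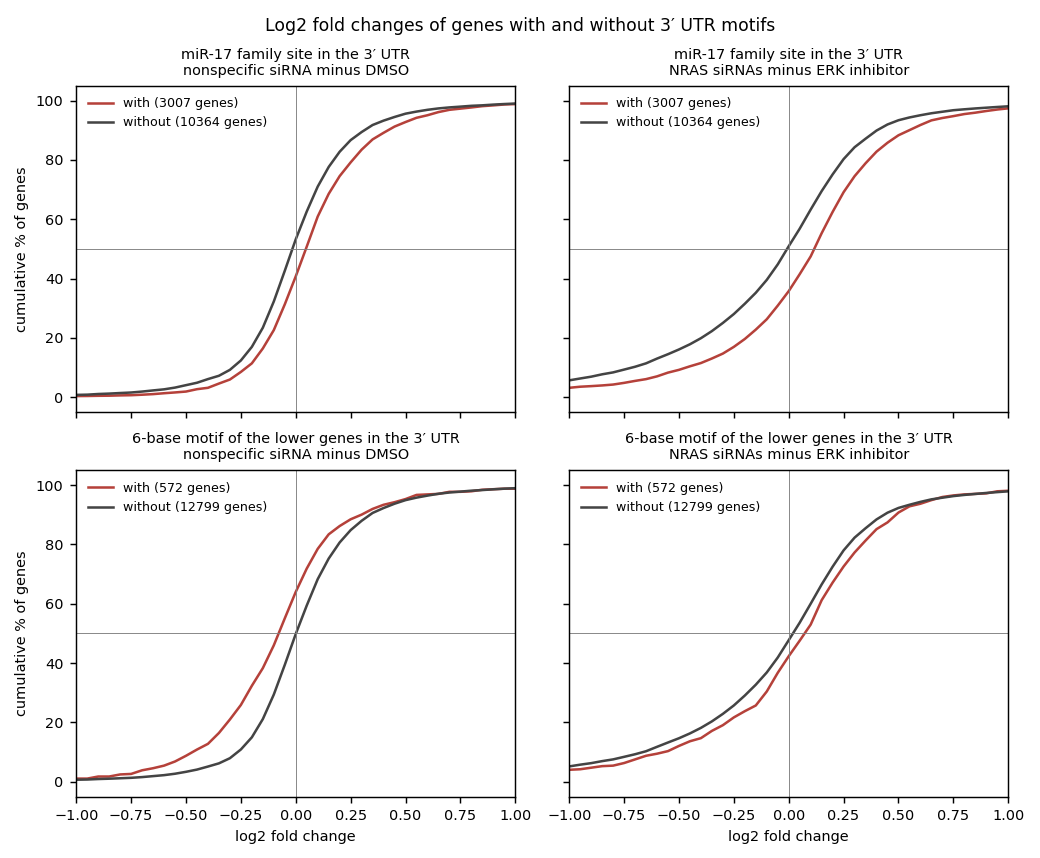
Cumulative share of genes (vertical axis, %) by log2 fold change (horizontal axis) for genes with a motif in the 3′ UTR (red) and without it (grey), for nonspecific siRNA minus DMSO (left) and for the separate libraries, NRAS siRNAs minus ERK inhibitor (right). The red curve for the 6-base motif lies to the left in the left panel, where its median is -0.08 and the adjusted shift -0.12, against a shift of -0.02 in the right panel, and the curve for the miR-17 family site lies to the right in both panels.

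Among the 40 higher genes, C9orf5, a membrane protein whose current symbol is TMEM245, and CYBRD1, a ferric reductase, had the smallest adjusted p-values. C9orf5 stood at 220.5 and 202 CPM in DMSO and 438 and 468 CPM with the nonspecific siRNA, a log2 fold change of 1.10 (SE 0.09, adjusted p = 0.00153) in edgeR. CYBRD1 stood at 154 and 142 CPM in DMSO and 301 and 333 CPM with the nonspecific siRNA, or 1.10 (SE 0.09, adjusted p = 0.00153). Both groups were far apart in either gene. With the NRAS siRNAs both genes stood above the DMSO libraries too, at 474 to 515 CPM for C9orf5 and 336 to 366 CPM for CYBRD1.

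SLC2A3, the glucose transporter GLUT3, rose from 92.02 and 86.6 CPM to 196 and 171 CPM, a log2 fold change of 1.04 (SE 0.09, adjusted p = 0.00211) in edgeR. It was the 1 called gene among 53 tested members of the glycolysis and hypoxia list, whose median was 0.04 beside -0.01 for all tested genes. It stayed at 155 to 175 CPM with the NRAS siRNAs and was at 39.3 and 38.5 CPM with the ERK inhibitor. BTG2 rose from 10.6 and 9.90 CPM to 24.95 and 22.4 CPM, the greatest rise at 1.21 (SE 0.18, adjusted p = 0.027) in edgeR, and was the 1 called gene of both the p53 target list (26 tested) and the immediate-early list (36 tested), where 0.271% of all tested genes were called higher. At an unadjusted p under 0.05, 5 p53 targets and 8 immediate-early genes were higher and 0 lower (6.73% of all tested genes were higher at that level), with medians of 0.13 and 0.28. The p53 target CDKN1A, an inhibitor of cyclin-dependent kinases, stood at 19.9 and 24.3 CPM in DMSO and 23.1 and 41.6 CPM with the nonspecific siRNA with overlapping groups, a log2 fold change of 0.55 (SE 0.36, adjusted p = 0.628) in edgeR.

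The other named rises covered surface proteins, a nutrient sensor and ubiquitin or membrane genes. SEMA4B, a semaphorin, rose by 1.06 (SE 0.15), FAM3C, a secreted cytokine-like protein, by 1.01 (SE 0.16), ADAM19, a membrane metalloprotease, by 1.01 (SE 0.14), and FZD6, a WNT receptor, by 0.90 (SE 0.15) on the log2 scale. RRAGD, a Rag GTPase that links lysosomal nutrients to mTORC1, rose from 10.4 and 11.01 CPM to 21.9 and 20.4 CPM, or 0.98 (SE 0.14, adjusted p = 0.0262) in edgeR. It was 1 of 2 called members of 54 tested in the lysosome and autophagy list (0.271% of all tested genes were called higher). That list had 15 members higher and 2 lower at an unadjusted p under 0.05 (all tested genes: 6.73% and 4.87%) and a median of 0.17. Without replicate 1 of the nonspecific siRNA 9 were higher at that level and 0 were called. ANKRD46, TMEM64 and LONRF1 completed the 12 greatest rises, at 0.94, 0.93 and 0.93. TMEM64 was not evenly high in the siRNA libraries: it stood at 22.9 and 26.9 CPM with the nonspecific siRNA but at 15.2 CPM or less with NRAS siRNA 1 and at 19.2 and 22.9 CPM with NRAS siRNA 2, against 13.9 and 12.3 CPM in DMSO.

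A comparison with no library in common asked which of these genes also differed where siRNA at 48 h was set against drug at 24 h. The NRAS siRNAs minus the ERK inhibitor called 1913 genes higher (13.0% of those tested) and 2245 lower (15.2%), so this contrast moves many genes by itself and adds NRAS knockdown and ERK inhibition to the differences already named. Of the 40 genes higher with the nonspecific siRNA, 32 (80.0%) were also called higher there. A value above 0 was seen in 39 of the 40, and in 7628 of all 14761 genes tested. Of the 16 lower genes, 0 were called lower and 1, PRR11, was called higher, by 0.42 (SE 0.08). The median log2 difference in that contrast was 0.61 for the higher genes and 0.07 for the lower ones. In the ERK inhibitor minus DMSO, 16 of the 40 higher genes were called, and log2 fold changes of the 40 ran from -1.30 to 0.94. The count of 32 depends on the calls in the control libraries, and it became 5 and 4 without replicate 1 or 2 of the nonspecific siRNA and 7 and 3 without replicate 1 or 2 of DMSO. TGFBR3, the TGF-beta co-receptor betaglycan, was 1 of the 8 not called there (chosen after its values were seen). It rose from 25.9 and 27.4 CPM in DMSO to 45.2 and 53.9 CPM with the nonspecific siRNA (0.89 (SE 0.13, adjusted p = 0.027) in edgeR), and stood at 47.3 to 54.6 CPM with the NRAS siRNAs and 56.3 and 43.8 CPM with the inhibitor, so all 8 libraries of the other groups lay above DMSO.

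The higher genes had long 3′ UTRs, with a median of 2696.5 bases against 1144 for all tested genes with a 3′ UTR and 1218 for the lower genes. In the same ranking of the 15883 runs of 7 bases, a description and no test as above, GCACTTT ranked highest. It is the complement of the seed AAAGUGC, shared by the miR-17 family, a group of microRNAs abundant in many proliferating and tumour cells. The sites of the miR-25 and miR-92 family (GTGCAAT) and of the miR-19 family (TTTGCAC) ranked 4th and 5th, and that of the miR-130 and miR-301 family (TTGCACT) ranked 8th. These letters overlap each other and runs such as CACTTTA (ranked 2nd), TGCACTT (3rd) and ATGCACT (7th), so the ranks are not separate observations. All tested genes held GTGCAAT in 11.5% of 3′ UTRs, TTTGCAC in 14.6% and TTGCACT in 15.2%, and the 40 higher genes in 32.5%, 42.5% and 42.5%. Genes of matching 3′ UTR length held them in 19.2%, 23.2% and 23.8%. These families are shown because their sites led the ranking; mature sequences are from RefSeq (GRCh38.p14, all 15 names sought were found), with the seed, bases 2 to 8, in capitals, grouped by seed.
miR-17-5p: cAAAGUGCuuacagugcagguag
miR-20a-5p: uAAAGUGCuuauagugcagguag
miR-93-5p: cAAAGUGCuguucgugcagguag
miR-106b-5p: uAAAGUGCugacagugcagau
miR-92a-3p: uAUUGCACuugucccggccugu
miR-25-3p: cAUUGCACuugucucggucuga
miR-32-5p: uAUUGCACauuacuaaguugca
miR-19a-3p: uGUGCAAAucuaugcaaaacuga
miR-19b-3p: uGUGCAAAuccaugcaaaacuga
miR-130b-3p: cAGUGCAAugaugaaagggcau
miR-301a-3p: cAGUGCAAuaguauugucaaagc

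GCACTTT lay in the 3′ UTR of 27 of the 40 higher genes (67.5%), against 22.5% of all tested genes and 35.9% of genes of matching 3′ UTR length, and in 3 of the 16 lower genes (18.8%). The higher genes carried 3.86 sites per 10 kb of 3′ UTR and all tested genes 1.77. CYBRD1 held 4 sites, more than any other of the 40, and FYCO1, SSH1 and ZBTB4, picked here for their site number, held 3 each. A pair of sites from each of CYBRD1 and RRAGD, and those of SEMA4B, ADAM19, FAM3C and TGFBR2 (picked after its value was seen, as the TGF-beta receptor), are printed as examples, with the 7 bases in capitals, 9 bases on each side, 5′ to 3′ on the transcript strand, GRCh38.
CYBRD1, chr2:171555611-171555635 (+ strand): cctcagagaGCACTTTtccccaagt
CYBRD1, chr2:171555688-171555712 (+ strand): ctcctctaaGCACTTTacacatatt
RRAGD, chr6:89367871-89367895 (- strand): ataaagtaaGCACTTTgaagcaaaa
RRAGD, chr6:89367738-89367762 (- strand): acatattttGCACTTTttcatgttt
SEMA4B, chr15:90229606-90229630 (+ strand): taataagatGCACTTTatgtcattt
ADAM19, chr5:157480164-157480188 (- strand): ttctctgccGCACTTTcctggtgcc
FAM3C, chr7:121350417-121350441 (- strand): gaagaaagcGCACTTTcactcttaa
TGFBR2, chr3:30691858-30691882 (+ strand): ataacatttGCACTTTattaatgcc

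Some sites sit in letters of the Alu repeat, whose copies are common in 3′ UTRs. When sites followed by GGGA or GGAA were left out, a choice made after seeing the sites, 16.8% of tested genes kept a site, as did 25 of the 40 higher genes (62.5%, against 26.9% at matching length) and 1 of the 16 lower genes. The repeat-like sites include 1 of the 2 in C9orf5 and 2 of the 3 in SSH1. The adjusted shift was then 0.08 on the log2 scale in place of 0.06. Genes with at least 2 such sites, 431 in all, had a median log2 fold change of 0.12, those with any 0.07, and the rest -0.01. Unlike the shift, these medians make no allowance for 3′ UTR length. The miR-1 and miR-206 site, with an adjusted shift of -0.003, showed the same order: 0.04 with at least 2 sites, 0.01 with any and 0.00 without. A part of site number apart from length was not tested. The shifts and medians of GCACTTT carriers are small beside the rises of the called genes.

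In the libraries that share none with the controls, the NRAS siRNAs minus the ERK inhibitor, GCACTTT again ranked first of the 15883, with a shift of 0.06, and TTGCACT ranked 3rd. Against DMSO, the same libraries as in the control comparison, GCACTTT was shifted by 0.03 with NRAS siRNA 1 (4th) and by 0.03 with NRAS siRNA 2 (27th). Both are less than the 0.06 of the nonspecific siRNA, a difference that was not tested. Both are also less than the 0.06 of the NRAS siRNAs minus the ERK inhibitor. That value includes any shift of the inhibitor libraries against DMSO, which was not computed, so it is no plain repeat of the control comparison. In the NRAS siRNAs minus the ERK inhibitor, the miR-25 and miR-92 site ranked 43rd and the miR-19 site 348th. Against DMSO the first ranked 3rd with NRAS siRNA 1 and 6th with NRAS siRNA 2, and the second ranked 2nd with both siRNAs. Other microRNA sites ranked across the table in the control comparison. TGCACTT, 3rd, is also the seed match of miR-519a-3p and its relatives, and AGCACTT, 10th, that of the miR-302 and miR-372 group; both overlap GCACTTT in 6 letters. The sites of miR-29 ranked 23rd, let-7 31st, miR-21 221st, miR-18 982nd and the muscle microRNAs miR-1 and miR-206 9476th. Each nonspecific library against the DMSO mean gave a shift of 0.04 or 0.06 for GCACTTT, and DMSO replicate 1 minus replicate 2 gave -0.01. Mature microRNAs were not measured, and MIR17HG, the host transcript of the miR-17 to miR-92 cluster, stood at 12.1 and 9.03 CPM in DMSO and 8.07 and 19.9 CPM with the nonspecific siRNA, with overlapping groups. EIF2C4, which encodes the Argonaute protein AGO4, rose from 34.6 and 28.7 CPM to 51.5 and 49.6 CPM (0.68 (SE 0.12, adjusted p = 0.0485) in edgeR), the 1 called gene of 15 tested in the RNA interference list. Of all tested genes 0.271% were called higher. The RNA interference list had 5 members higher and 0 lower at an unadjusted p under 0.05 (all tested genes: 6.73% and 4.87%), 11 of 15 above 0 and a median of 0.12. EIF2C4 and 3 others named here, TNRC6A, TNRC6B and DICER1, all on the high side of that list, were picked after their values were seen. The GW182 proteins TNRC6A and TNRC6B, partners of Argonaute, had 0.47 (SE 0.11) and 0.39 (SE 0.09), and the nuclease DICER1 0.61 (SE 0.20), which did not pass (adjusted p = 0.117, 0.103 and 0.242 in edgeR). EIF2C4 itself holds sites of all 4 families, its GCACTTT in Alu letters. Neither EIF2C4 nor any other member was called when any 1 control library was left out. Whether any microRNA or Argonaute protein has a part in these shifts was not tested.

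Genes of the interferon response stood higher with the nonspecific siRNA without passing the test. Of 45 tested members, all had a log2 fold change above 0, with a median of 0.48 beside -0.01 for all tested genes; 25 reached an unadjusted p under 0.05, all higher (6.73% of all tested genes were higher at that level), and 0 were called by edgeR. DESeq2 called 8. The count of 25 was 14 without replicate 1 of the nonspecific siRNA and 12 without replicate 2 of DMSO. The summed level of the 48 listed members was 1810 and 1768 CPM with the nonspecific siRNA and 1562 and 1318 CPM in DMSO, 1556 and 1579 CPM with NRAS siRNA 1, 1726 and 1733 CPM with NRAS siRNA 2 and 1692 and 1677 CPM with the ERK inhibitor. NRAS siRNA 1 thus stood at the level of DMSO replicate 1, and the other groups above both DMSO libraries. IFIT2, which binds foreign RNA, came closest, at 31.7 and 19.4 CPM in DMSO and 50.4 and 56.6 CPM with the nonspecific siRNA (1.07 (SE 0.19, adjusted p = 0.0522) in edgeR; chosen after its values were seen). Its NRAS siRNA libraries held 36.5 to 45.3 CPM and its inhibitor libraries 17.4 and 14.8 CPM. IFIT1 gave 0.55 (SE 0.22, adjusted p = 0.351), the ubiquitin-like ISG15 0.47 (SE 0.19, adjusted p = 0.377) and the RNA sensor DDX58, or RIG-I, 0.42 (SE 0.20, adjusted p = 0.452) in edgeR. Unlike IFIT2, ISG15 stood low with the NRAS siRNAs: it was at 88.9 and 68.3 CPM with the nonspecific siRNA but at 37.3 to 46.1 CPM with the NRAS siRNAs, below DMSO at 63.1 and 50.5 CPM. 

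MHC class I genes stood higher as well. Of all tested genes, 6.73% were higher at an unadjusted p under 0.05 and 0.271% were called higher. Of 17 tested members of the antigen-processing list all had a value above 0 and 12 reached an unadjusted p under 0.05, all higher, with a median of 0.34; 7 did so without replicate 2 of DMSO, 8 without replicate 1 of the nonspecific siRNA. TAPBP, the peptide-loading chaperone tapasin, was the 1 called gene, rising from 49.3 and 47.9 CPM to 83.97 and 94.9 CPM (0.88 (SE 0.14, adjusted p = 0.0323) in edgeR; named after its values were seen), and was not called when any 1 control library was left out. B2M, the light chain of class I molecules and likewise named after its values were seen, stood at 517 and 535 CPM in DMSO and 683 and 691 CPM with the nonspecific siRNA, a difference of 0.38 (SE 0.09, adjusted p = 0.121) in edgeR. B2M groups did not overlap, as in 5550 of the 14761 genes tested, and its adjusted p missed the threshold.

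NF-kB genes had the greatest median of all lists, 1.04, with all 28 tested members above 0. But 8 of them reached an unadjusted p under 0.05, all higher (6.73% of all tested genes were higher at that level). By edgeR or DESeq2 0 were called (0.379% of all tested genes by edgeR). Here 1 library stood apart. Summed over the 32 listed members, replicate 2 of the nonspecific siRNA had 2175 CPM and replicate 1 1091 CPM, against 709.98 and 898 CPM in DMSO. Replicate 2 exceeded replicate 1 in the other 3 groups too: 581 and 1204 CPM for NRAS siRNA 1, 646 and 1487 CPM for NRAS siRNA 2, and 477 and 600.1 CPM for the ERK inhibitor. NFKBIA, the NF-kB inhibitor IkB-alpha, was at 61.8 and 88.1 CPM in DMSO and 108 and 188 CPM with the nonspecific siRNA (0.99 (SE 0.39, adjusted p = 0.364) in edgeR). NFKBIA and BIRC3, an apoptosis inhibitor induced by NF-kB, were named after their values were seen. BIRC3 was at 6.56 and 7.36 CPM in DMSO and at 12.5 and 52.1 CPM in replicates 1 and 2 of the nonspecific siRNA. The count of 8 turned to 16 when replicate 1 of the nonspecific siRNA was left out and to 2 when its replicate 2 was, and to 3 and 5 when DMSO replicate 1 or 2 was. Without replicate 2 of the nonspecific siRNA the median of the list was 0.29, with 20 of 28 above 0. What sets replicate 2 apart from replicate 1 was not tested.

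**Figure D3:**
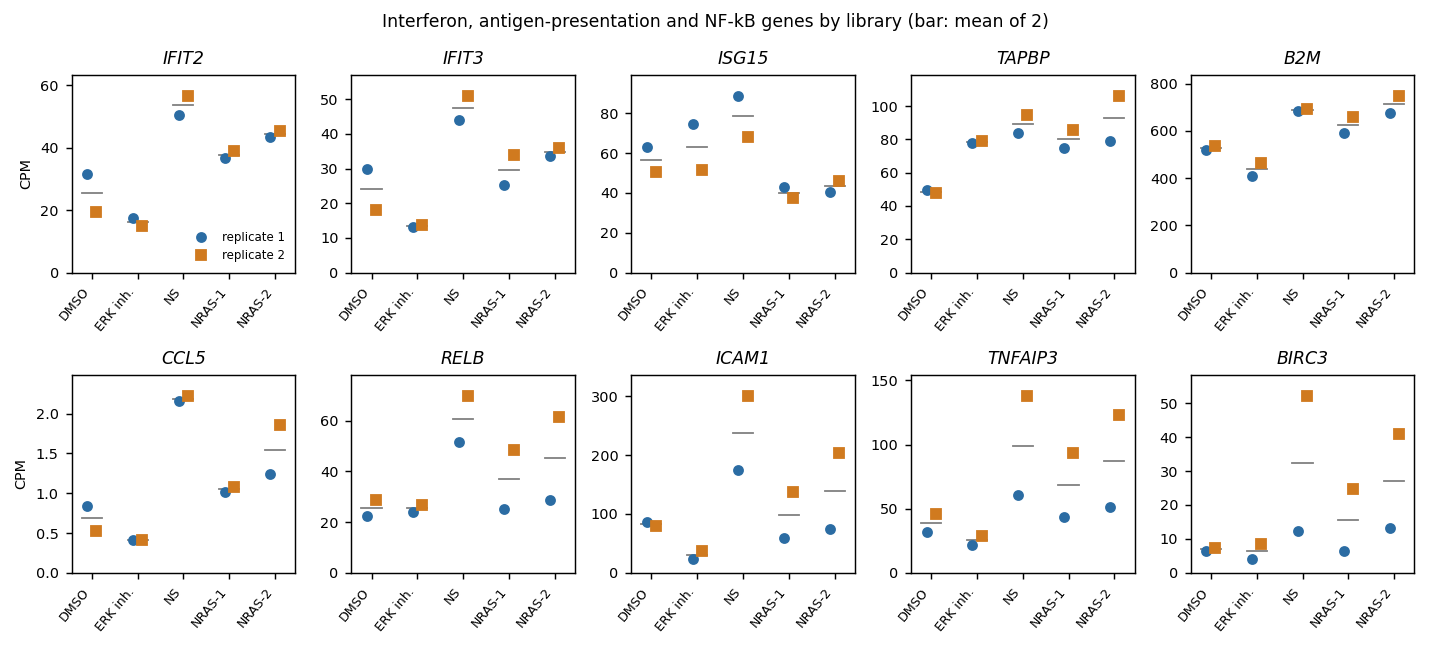
CPM (vertical axis, from 0) of 10 interferon, antigen-presentation and NF-kB genes in the 5 groups (horizontal axis); circles are replicate 1, squares replicate 2 and bars the mean of both. TAPBP and B2M replicates lie close together, while BIRC3 in the nonspecific siRNA spans 12.5 to 52.1 CPM and its replicate 2 is also the higher one in both NRAS siRNA groups.

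Cell-cycle lists leaned the other way. Of 50 tested mitosis genes 13 reached an unadjusted p under 0.05, all lower (4.87% of all tested genes were lower at that level), with a median of -0.21, and of 50 replication genes 10 did so, all lower, with a median of -0.16. By edgeR 0 members of either list were called, and by DESeq2 3 of the mitosis and 2 of the replication list. Leaving out 1 control library moved the mitosis count between 11 and 20 (20 without replicate 1 of the nonspecific siRNA) and the replication count between 3 (without replicate 2 of DMSO) and 13. The replication count was 6 without either replicate of the nonspecific siRNA. MKI67, a marker of cycling cells, stood at 822 and 776 CPM in DMSO and 569 and 657 CPM with the nonspecific siRNA, a difference of -0.38 (SE 0.09, adjusted p = 0.117) in edgeR, and at 528 to 612 CPM with the NRAS siRNAs. It passed with DESeq2, at -0.39 (adjusted p = 0.0163). MYC targets and ribosome biogenesis genes had a median of -0.19 over 41 tested and ATF4 targets -0.15 over 44 tested, with 3 and 10 lower at an unadjusted p under 0.05. Without replicate 2 of DMSO these medians were -0.01 and -0.09, with 0 and 6 lower at that level, and without DMSO replicate 1 or replicate 2 of the nonspecific siRNA the first count was 8, and 1 without replicate 1. Circadian clock genes had 6 of 21 higher and 0 lower at that level (all tested genes: 6.73% higher), with a median of 0.28. In bulk RNA, fewer cells in a phase and less RNA per cell cannot be told apart.

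**Figure D4:**
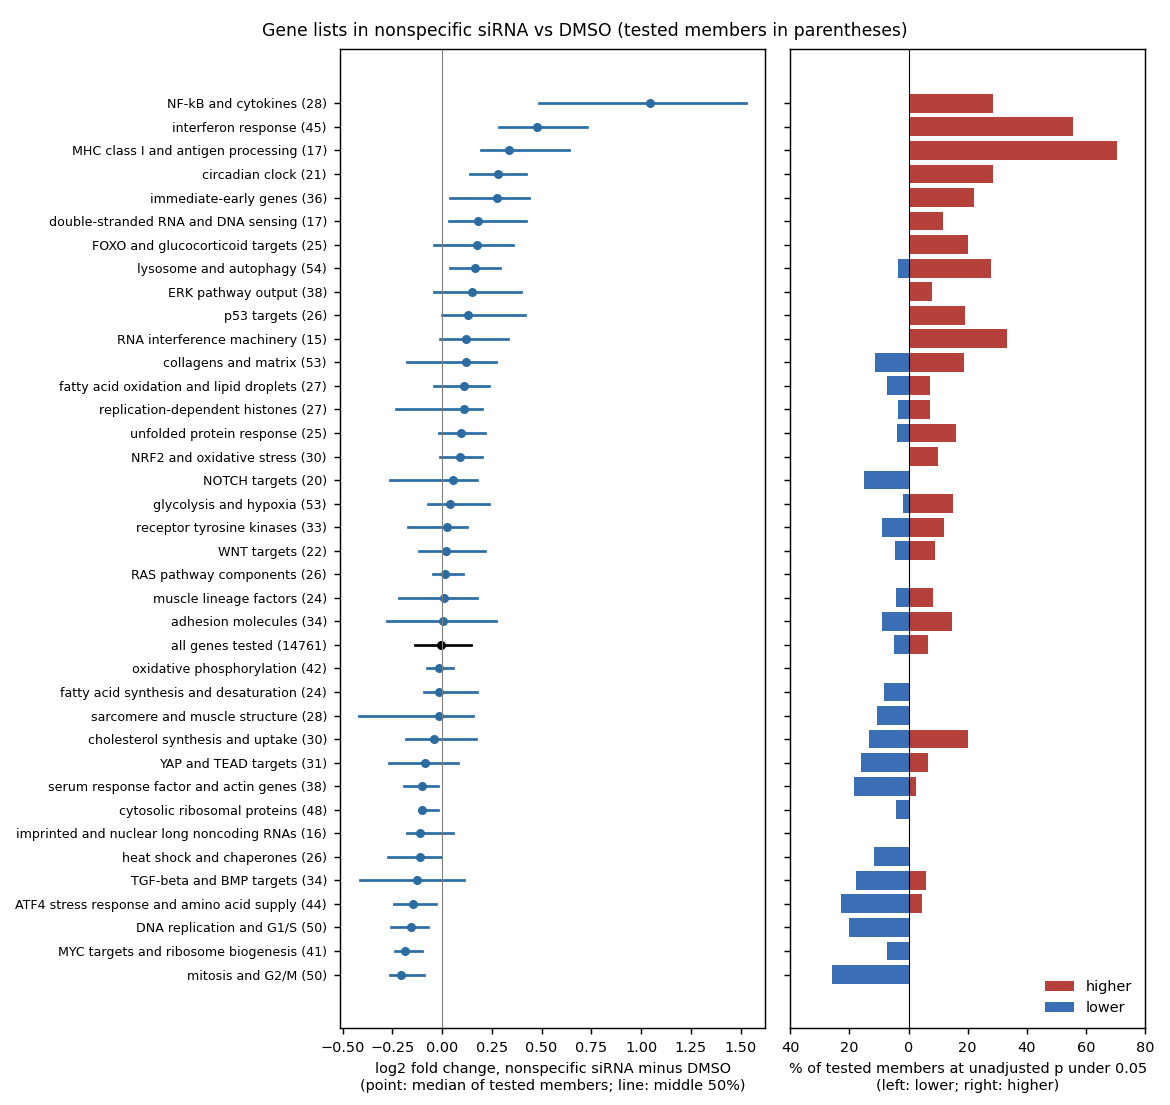
Median log2 fold change and middle 50% of each gene list with at least 15 tested members (left), and the share of members at an unadjusted p under 0.05 in each direction (right), with all 14761 tested genes in black. NF-kB, interferon and MHC class I lists lie furthest right, at 1.04, 0.48 and 0.34, and the mitosis list furthest left, at -0.21.

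NRAS, and the 7 ERK targets and feedback genes given here, did not pass the test between both references. NRAS stood at 269 and 282 CPM in DMSO and 219.7 and 272 CPM with the nonspecific siRNA, a difference of -0.17 (SE 0.12, adjusted p = 0.652) in edgeR, and at 47.98 to 52.4 CPM with the siRNAs against it. HRAS gave -0.10 (SE 0.14), and of 26 tested RAS pathway components 0 reached an unadjusted p under 0.05 and 0 were called by edgeR or DESeq2. Of all tested genes 11.6% reached that level, 6.73% higher and 4.87% lower, and edgeR called 0.379%. The ERK output list, given next, had 7.89% at that level, all higher, near the share of all tested genes. Of 38 tested genes of the ERK output list 3 were higher and 0 lower at an unadjusted p under 0.05, with a median of 0.15; edgeR called 0 and DESeq2 1, and the count of 3 was 0 without replicate 2 of DMSO. The phosphatase DUSP6 had -0.22 (SE 0.16, adjusted p = 0.665), the inhibitor SPRY4 -0.21 (SE 0.15, adjusted p = 0.662) and the ETS factor ETV4 0.01 (SE 0.19, adjusted p = 0.996) in edgeR. EGR1 gave 0.42 (SE 0.26), FOS 0.22 (SE 0.21), MYC -0.03 (SE 0.23) and the cyclin CCND1 0.26 (SE 0.24), none past the threshold. With standard errors of 0.15 to 0.26 on the log2 scale for these 7 genes, differences of that order were not detectable with 2 libraries a group.

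Among genes of metabolism and growth signalling, the cholesterol synthesis enzyme HMGCS1 gave -0.03 (SE 0.12) and the thioredoxin-binding TXNIP 0.37 (SE 0.22), neither past the threshold. IGF2, a fetal growth factor, stood at 31.4 and 17.5 CPM in DMSO and 69.6 and 43.6 CPM with the nonspecific siRNA, a difference of 1.21 (SE 0.29, adjusted p = 0.117) in edgeR; its replicates spread widely, and DESeq2 called it (adjusted p = 0.000932). H19, the noncoding RNA of the same locus, was at 0.268 CPM or less in all 4 control libraries.

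The baseline of the cells labelled RD was taken from the 4 control libraries together. At least 1 CPM was reached in each of them by 12705 genes, 54.7% of those listed, and 2377 genes reached 100 CPM in each. Only 31 genes reached 1 CPM in both nonspecific libraries and in neither DMSO library, and 36 did the reverse. Levels of different genes are compared as CPM per kb of exon, with exon lengths from GENCODE v29 for 21547 genes. The greatest was that of TMSB10, an actin-binding peptide, at 2027 CPM per kb, followed by ACTB (1654), VIM (1616), FTL (1604), GAPDH (1388), COL3A1 (1219) and LGALS1 (1127). ACTG1 (989.9), RPL35, ENO1, TUBA1B, RPL5 and EEF2 (747) also stood among the first 15. Cytoskeleton, ribosome and glycolysis genes thus lead, and COL3A1, the chain of type III collagen, is the 1 matrix gene among them. Several of these have many processed copies in the genome, which makes their counts uncertain.

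Muscle genes stood low beside collagen genes. Of 59 sarcomere genes listed, 12 reached 1 CPM in each control library, and the leading pair, the tropomyosins TPM2 and TPM3, at 183 and 116 CPM per kb, are also made in nonmuscle cells. DES, the muscle intermediate filament, stood at 10.5 CPM per kb and the transcription factor PAX3 at 2.86. MEF2C stood at 4.02, TCF12, a partner of the muscle factors found in many cells, at 17.2, and MEF2D at 15.7. MYH3, the embryonic myosin, reached 0.628 CPM per kb and the acetylcholine receptor CHRNA1 0.218. MYOD1 had 12 counts over the 4 libraries, MYOG 3 and PAX7 12. Of the collagen and matrix list, 47 of 53 members reached 1 CPM in each library, with COL5A2 second at 361 CPM per kb.

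Markers of other cell types were mixed. Neurofilaments NEFM and NEFL led the neural list, at 297 and 198 CPM per kb, and 12 of its 23 members reached 1 CPM in each library, but OLIG2 had 0 counts. The summed level of that list was 4015 and 2988 CPM in DMSO and 4204 and 3003 CPM with the nonspecific siRNA, so replicate 1 was the higher one in both groups. Of the smooth muscle, fat and bone list, the matrix protein SPP1 stood at 372 CPM per kb and SOX9, the cartilage factor, at 42.01. In the blood and endothelial list 5 of 25 members reached 1 CPM in each library, led by the angiopoietin receptor TEK at 30.4 CPM per kb, while 6, among them haemoglobin genes, had 0 counts. KRT18 and KRT8 led 6 detected epithelial markers of 22, at 113 and 3.79, and ESRP1 and KRT19 had 0 counts. LIN28B, an oncofetal RNA-binding protein that blocks let-7 maturation, was the 1 of 14 liver and germ cell markers detected. PRAME, at 139.8 CPM per kb, and MAGEA12, at 44.5, led 8 detected cancer-testis antigens of 26.

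**Figure D5:**
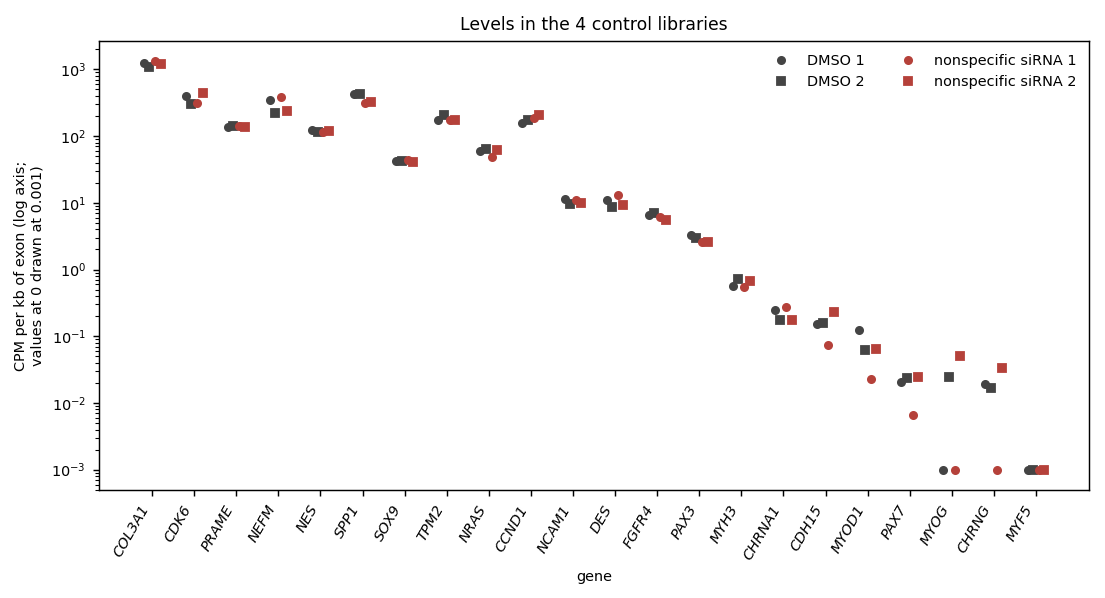
CPM per kb of exon (log axis, values at 0 drawn at 0.001) of 22 genes (horizontal axis) in the 2 DMSO libraries (grey) and the 2 nonspecific siRNA libraries (red); circles are replicate 1 and squares replicate 2. All 4 libraries lie close together from COL3A1 to PAX3. MYF5 lies at the floor in each library, and MYOD1, PAX7, MYOG and CHRNG lie low, at the floor only where a library had 0 counts.

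Signalling genes were well represented at baseline. AXL and EPHB4 were the receptor tyrosine kinases with the greatest level, at 59.8 and 43.8 CPM per kb, and 27 of 36 listed reached 1 CPM in each control library. NRAS, at 58.6 CPM per kb (49.4 to 63.4 over the 4 libraries), stood near HRAS at 49.2 (43.9 to 57.9), whose range overlaps it. The adaptor SHC1 (119) led the RAS pathway list. CCND1 stood at 179.7 CPM per kb, MYC at 46.3 and MKI67 at 55.7. The MCM7 helicase subunit at 414 and the spindle factor TPX2 at 161 led the replication and mitosis lists, of which all 50 and 50 members reached 1 CPM in each library.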

How the data were processed

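RNA of 10 libraries (5 groups of 2) was measured by stranded mRNA sequencing, and 4 of them, the controls, are the main comparison. The authors deposited counts per gene, whole numbers with no normalization. Per the submitters' processing notes, bcl2fastq, TopHat2, SAMtools and HTSeq were used with hg19 (GRCh37); the notes used here name no versions. HTSeq's 5 category lines, 38.3% to 39.4% of the counted and uncounted total, were left out of library sizes, and reads aligned to several places (27.0% to 28.9%) were not counted, which lowers genes with close copies. Each count column was matched to a sample by its name, and 0 columns belonged to no sample.

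Genes were filtered with filterByExpr (minimum count 10) and tested with edgeR 4.0.16 in R 4.3.3 (TMM scaling, quasi-likelihood F-test, two-sided, all 10 libraries in 1 fit with 5 residual degrees of freedom, Benjamini-Hochberg over 14761 genes, threshold 0.05). On simulated counts for 14613 genes of this comparison the fit recovered 82 of 100 changes of 1 and 13 of 100 changes of 0.5 on the log2 scale, with 7 false calls. Exon lengths and 3′ UTRs came from GENCODE v29 (GRCh38), matched by symbol; 3′ UTRs were found for 13371 tested genes, from the principal transcript, and spliced. Log2 fold changes were limited to 1.5 in either direction for the 7-base runs, which were scored on the transcript strand.

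The text names the 12 greatest rises and 12 greatest falls among called genes whose groups did not overlap and whose higher mean reached 5 CPM, up to 4 called members of each list with at least 2, a fixed set of 29 genes, and for the baseline the 15 genes highest per kb and the 2 highest of each of 44 lists; others are said to be chosen after their values were seen, and some results are not reported here. The comparison and the lists were chosen with earlier results of these data known. Alternatives were 3 scalings, 2 filters, DESeq2 1.42.0, the 4 control libraries alone, the replicate number as a block, and each control library left out. With 2 libraries a group, no single-gene permutation test can pass 0.05, so the model across genes was used.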

Additional observations from a re-analysis of the deposited data

How the results depend on the processing

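The direction of all 25 called genes chosen by rule held under the 12 alternatives, and the number of calls did not. Since the groups of these genes do not overlap, leaving out a library could hardly reverse a direction. Leaving out 1 control library gave 6 to 12 called genes, 3 to 6 higher, 3 to 6 lower and 3 to 7 shared with the separate libraries, from fewer samples. Library totals alone gave 91 genes, 73 of them higher and 58 shared; no filter gave 283 (197 higher, 86 lower, 167 shared); DESeq2 gave 354 (232, 122 and 192); and the 4 control libraries alone gave 12 (9 higher, 3 lower), where no shared count can be had. All 56 genes remained among the calls without a filter, with library totals and with DESeq2. Apart from the shrinking number of samples, the cause of these moves was not tested. Detected genes at baseline numbered 12705 to 13366 over the detection rules and left-out libraries, the highest at 0.5 CPM.

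With the replicate number as a block, 446 genes were called, 292 higher and 154 lower, and 258 were shared with the separate libraries; the 56 were all among them. The labels do not say what a number marks, so the numbers are not taken as pairs. Deviations of same-numbered control libraries correlated at 0.0737. Over all 10 libraries, however, the third principal component, with 8.58% of the variance, placed replicate 2 above replicate 1 in every group. What the number stands for was not tested. Under the block 23 of 28 NF-kB members were higher at an unadjusted p under 0.05 and 10 were called, as were 10 of 45 interferon members, among them IFIT1 (adjusted p = 0.0332, edgeR), and 4 of 17 MHC class I members.

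Alternatives applied to gene lists and to 3′ UTR motifs were chosen after seeing the data. Over all of them the shift of genes with GACGTA ranged from -0.13 to -0.10, and that of genes with GCACTTT from 0.05 to 0.07. With 23224063 to 27232886 counts in the controls and 2 libraries a group, changes of 0.5 on the log2 scale were mostly not detectable.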
